A study of Homo sapiens with 16 samples.

Results

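The oxygen response of translation was followed in H9 human embryonic stem cells that had been treated with an siRNA against OCT4 (siOCT4) and kept at 1% oxygen or at 20% oxygen. H9 is an established embryonic stem cell line, grown here without feeders in mTeSR1 medium, and OCT4 is the product of POU5F1, a transcription factor that keeps such cells pluripotent. All cells of this comparison carried the siOCT4 treatment, so the contrast is one of oxygen within cells given this siRNA. Of the 16 libraries of the series, 8 belong to siOCT4 cells. Each culture gave 1 RNA-seq library and 1 library of mRNA in ribosome-nascent chain complexes (RNC), with 2 cultures of siOCT4 cells at 1% oxygen and 2 at 20% oxygen. The other libraries come from cells with a control siRNA at 1% and 20% oxygen, again with 2 cultures each, and are used below for the test of whether the oxygen effect differed. Nothing in the labels tells if both cultures of a group were independent, and p-values therefore rest on a spread that may be technical.

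The measurement is the translation ratio, which the authors computed for each gene as its RNC value over its RNA value. RNC-seq recovers full-length mRNAs with at least 1 ribosome and a growing peptide by pelleting them through a sucrose cushion, and the ratio then says how strongly an mRNA is represented among the translated ones. A ratio is a relative quantity: it can move through the RNC or the RNA level, and neither fewer translating cells and fewer ribosomes per cell nor a change in either library can be told apart in such bulk samples. Low oxygen is known to restrain protein synthesis through 2 routes. The integrated stress response phosphorylates the initiation factor eIF2, and loss of mTORC1 activity releases the 4E-BP inhibitors of the cap-binding protein eIF4E. mRNAs of ribosomal proteins and of several elongation factors, which begin with a terminal oligopyrimidine (TOP) run and are bound by LARP1, are the best known targets of mTORC1. In parallel HIF1A and EPAS1, stabilised when prolyl hydroxylases lack oxygen, induce genes of glycolysis and oxygen delivery.

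The table lists 28252 genes, of which 15864 had a ratio in all 8 cultures and were tested; 16711 had one in all 4 siOCT4 cultures. The depth of the libraries is not given in the sources used here. The median ratio was 1.35 and 1.31 in the siOCT4 cultures at 1% oxygen and 1.11 and 1.11 in those at 20% oxygen. The median distance between the 2 cultures of a group was 0.17 log2 units at 1% oxygen and 0.15 at 20% oxygen. The level of POU5F1 RNA cannot be read from a ratio, so the knockdown itself was not checked, and neither was the identity of the cells by their marker levels. All changes below are log2 differences, 1% minus 20% oxygen, with their standard error (SE) and adjusted p from limma across all genes tested, at a threshold of 0.05.

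The ratio of POU5F1 itself was lower at 1% oxygen. It was 0.453 and 0.532 in the siOCT4 cultures at 1% oxygen, against 1.41 and 1.42 at 20% oxygen. Both low-oxygen cultures lay well below both others, a 2.89-fold difference (log2 change -1.53 ± 0.22, adjusted p = 0.00231). After correction for the GC content of transcripts, explained next, the change was -0.90 ± 0.14 (adjusted p = 0.00700), and it passed in each of the 16 fits that left out 1 culture.

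A difference between the oxygen levels across the whole table followed the base composition of the transcripts. In siOCT4 cells at 1% oxygen, mRNAs with under 42% GC had median ratios of 3.74 and 3.79, and those over 58% GC had 0.486 and 0.473. At 20% oxygen the same classes had 1.37 and 1.31 for under 42% GC, and 0.978 and 1.02 for over 58% GC. The log2 ratio thus changed by -1.20 and -1.23 per 10% GC at 1% oxygen, against -0.20 and -0.16 at 20% oxygen, and GC content accounted for 64.0% and 66.0% of the variance across genes at 1% oxygen, against 14.3% and 9.27% at 20%. Among 640 genes annotated as noncoding the slope was -0.76 and -0.84 at 1% oxygen and -0.06 and -0.10 at 20% oxygen. Of these, 212 of 277 long intergenic and 306 of 363 antisense RNAs had a ratio shared by other genes of a siOCT4 culture, as ratios from few reads are. The steep slope also appeared in control siRNA cells, but there at 20% oxygen, with -1.5 and -1.12 per 10% GC, against 0.01 and -0.28 in control cells at 1% oxygen. What produced the slopes was not tested, and an effect of oxygen and one of library preparation that moved with the groups cannot be told apart. Every gene is therefore given both as deposited and relative to the GC trend of its culture, here called GC corrected.

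**Figure D1:**
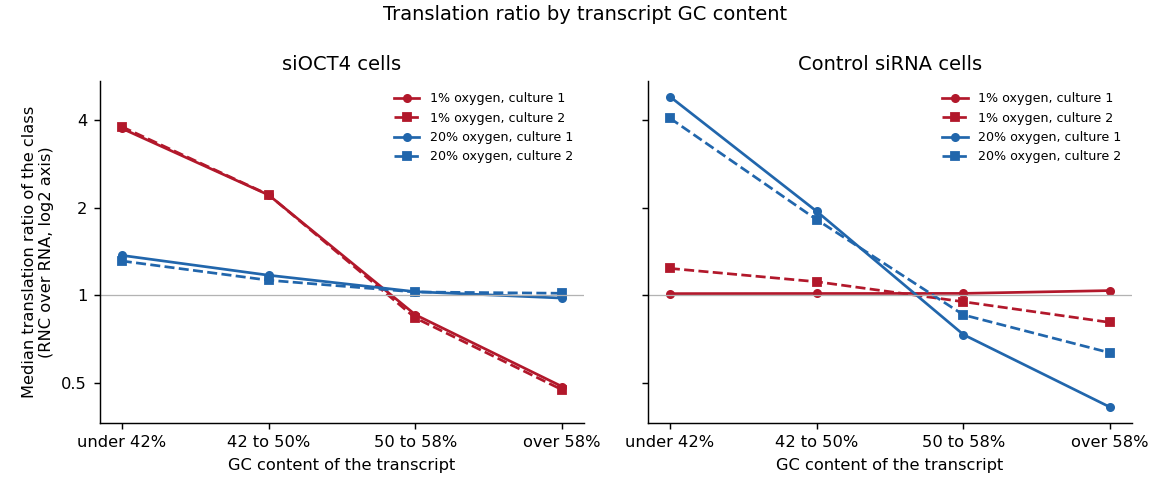
Median translation ratio (RNC over RNA, log2 axis) of genes in 4 classes of transcript GC content, for siOCT4 cells (left) and control siRNA cells (right); each line is 1 culture. The 2 siOCT4 cultures at 1% oxygen run from 3.74 and 3.79 under 42% GC to 0.486 and 0.473 over 58% GC, while the siOCT4 cultures at 20% oxygen stay between 0.978 and 1.37.

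What these classes look like can be seen in 3 mRNAs that return below. Each line holds 60 bases from the middle of the coding sequence, read from GENCODE 29 transcripts (GRCh38), with G and C in capitals. HIF1A (chromosome 14, codons 404 to 423 of 826) and BUB1B (chromosome 15, codons 516 to 535 of 1050) come from transcripts of 39.2% and 43.2% GC. SLC3A2 (chromosome 11, codons 306 to 325 of 630) comes from a transcript of 58.1% GC.
HIF1A: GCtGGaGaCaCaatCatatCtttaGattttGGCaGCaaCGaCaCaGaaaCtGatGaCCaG
BUB1B: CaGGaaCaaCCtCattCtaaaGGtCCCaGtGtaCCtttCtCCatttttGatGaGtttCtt
SLC3A2: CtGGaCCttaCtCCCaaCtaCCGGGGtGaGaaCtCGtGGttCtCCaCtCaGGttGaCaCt
Capitals make up 43.3% of the HIF1A stretch and 40% of the BUB1B stretch, against 55% in SLC3A2. As deposited, the ratios of HIF1A and BUB1B were higher at 1% oxygen and that of SLC3A2 was lower.

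As deposited, 5936 of 15864 genes were higher at 1% oxygen in siOCT4 cells (37.4%) and 3426 were lower (21.6%), around a median change of 0.27 over all genes. After centring each culture on its median the split was 4982 higher and 4615 lower. GC content ordered these calls: under 42% GC, 2578 of 3282 genes were higher and 38 lower, while over 58% GC 44 of 3591 were higher and 1879 lower. GC corrected, 2922 of 15396 genes with a GC value were higher (19.0%) and 2764 lower (18.0%), around a median of 0.03. Both fits called 2360 genes higher (15.3%) and 1554 lower (10.1%), and 249 genes (1.62%) passed in opposite directions. Leaving out any 1 of the 4 siOCT4 cultures removed calls, most of all culture 2 at 20% oxygen, without which 999 genes were higher and 1109 lower after GC correction. Counts of the gene groups below moved in the same fits, and those that moved by over 1.5 times are given with the culture left out. The shares of all genes just given are the background for the siOCT4 group counts of the fits with all cultures. They are 37.4% higher and 21.6% lower as deposited, and 19.0% and 18.0% GC corrected. Fits without a siOCT4 culture called fewer genes over the whole table, so the background of their group counts was smaller. After quantile normalisation 2738 of 15864 genes were higher and 2280 lower. Members named from each group were picked for the largest GC-corrected changes among those that passed on both scales. A gap between the oxygen levels in these members largely follows from that choice.

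The next genes were chosen among those that passed on both scales and had no ratio shared by other genes of a siOCT4 culture. Both cultures at 1% oxygen also had to lie apart from both at 20% on both scales. The 10 with the largest GC-corrected increase were SMARCA5-AS1, CRACR2A, THSD1, DISC1, NEFH, AFF3, MCC, MAGEL2, STON2 and PRDM15. CRACR2A, a calcium sensor of store-operated calcium entry, had ratios of 3.90 and 3.97 at 1% oxygen, against 0.787 and 0.722 at 20% oxygen, 5.22-fold higher (log2 change 2.39 ± 0.18, adjusted p = 0.000683; 2.87 GC corrected). NEFH, the heavy neurofilament subunit, had 2.44 and 2.24 at 1% oxygen, against 0.722 and 0.508 at 20% oxygen (1.95 ± 0.22, adjusted p = 0.00103; 2.57 GC corrected). MAGEL2, an imprinted regulator of ubiquitin ligases, had 1.55 and 1.37 at 1% oxygen, against 0.527 and 0.476 at 20% (1.54 ± 0.22, adjusted p = 0.00213; 2.44 GC corrected). By the rule of choice, the low-oxygen cultures lay above both cultures at 20% in all 3 genes. The others ranged between 2.28 and 2.95 after GC correction. MCC and AFF3 changed by 2.47 and 2.49, and the zinc finger gene PRDM15 by 2.28. SMARCA5-AS1 (2.95 GC corrected) overlaps SMARCA5 on the opposite strand, and since strand use in the counting is not given, reads of the pair cannot be told apart. Culture 2 at 20% oxygen set part of the THSD1 value, with ratios of 4.06 and 3.78 at 1% oxygen against 1.03 and 0.378 at 20%. THSD1 lost its call without siOCT4 culture 1 or 2 at 1% oxygen or culture 2 at 20% (adjusted p up to 0.0756, and 0.134 GC corrected). DISC1 and STON2 lost only the GC-corrected call, without either culture at 20% oxygen and, for DISC1, also without culture 1 at 1% (adjusted p up to 0.0648 and 0.0636).

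By the same rule, the 10 genes with the largest GC-corrected decrease were RPL39, RPLP1, TXNDC17, NDUFA4, FMC1, COX7A2, RPL35A, TMEM258, NDUFB2 and PTRHD1, 3 of them ribosomal proteins and 3 subunits of the respiratory chain complexes. TMEM258, a small subunit of the oligosaccharyltransferase that glycosylates proteins in the endoplasmic reticulum, had ratios of 0.337 and 0.315 at 1% oxygen, against 1.80 and 2.01 at 20% oxygen, 5.84-fold lower (log2 change -2.55 ± 0.15, adjusted p = 0.000683; -2.74 GC corrected). TXNDC17, a thioredoxin-like protein, had 0.481 and 0.463 at 1% oxygen, against 1.48 and 1.70 at 20% (-1.75 ± 0.18, adjusted p = 0.000894; -2.81 GC corrected). By the rule of choice, the cultures of the 2 oxygen levels lay apart in both genes. PTRHD1 had 0.261 and 0.278 at 1% oxygen, against 0.937 and 1.17 at 20% (-1.96 ± 0.28; -2.73 GC corrected). FMC1, an assembly factor of ATP synthase, had 0.476 and 0.468 at 1% oxygen, against 2.06 and 2.49 at 20% (-2.26 ± 0.58, adjusted p = 0.0183). FMC1 lost the call on both scales without any 1 of the 4 siOCT4 cultures (adjusted p up to 0.0818, and 0.0934 GC corrected).

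**Figure D2:**
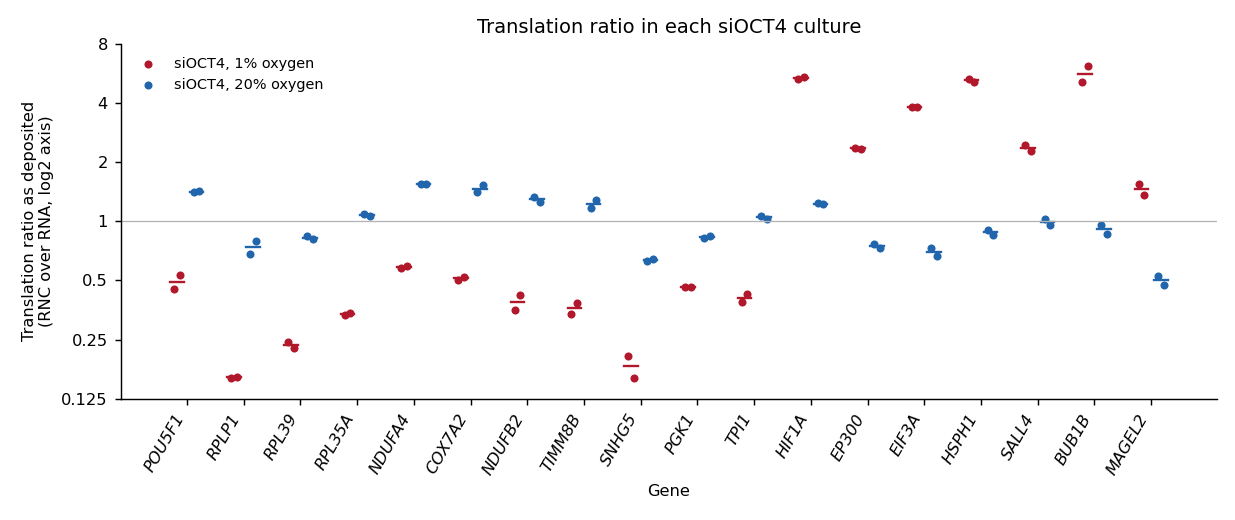
Translation ratio as deposited (RNC over RNA, log2 axis) of 18 genes in each siOCT4 culture; points are cultures, short lines the arithmetic mean of the 2 cultures, 1% oxygen left of 20% oxygen in each pair. The points of the 2 oxygen levels do not overlap in any of these genes, from RPLP1 at 0.160 and 0.161 against 0.684 and 0.798, to BUB1B at 5.15 and 6.15 against 0.958 and 0.867. Genes named for the largest changes were chosen with this as a condition, and members of gene groups for large changes that passed on both scales.

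The mRNAs of the cytosolic ribosome were lower at 1% oxygen almost throughout. Of 79 ribosomal protein mRNAs, 67 were lower and 0 higher as deposited, against 21.6% lower among all genes. GC corrected, 73 were lower and 0 higher (18.0% of all genes lower), with a median change of -1.48, against 0.03 for all genes. Their median ratio was 0.338 and 0.35 in the cultures at 1% oxygen, against 0.846 and 0.902 at 20% oxygen. The GC-corrected changes of the 79 reached from -3.80 to -0.35, and in all 79 both low-oxygen cultures lay below both others (36.0% of all genes did).

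RPLP1, an acidic stalk protein that recruits elongation factors, had ratios of 0.160 and 0.161 at 1% oxygen, against 0.684 and 0.798 at 20% oxygen. This was 4.59-fold lower (log2 change -2.20 ± 0.23, adjusted p = 0.000876; -2.85 ± 0.26 GC corrected). RPL39, a small protein of the peptide exit tunnel, had 0.242 and 0.227 at 1% oxygen, against 0.840 and 0.812 at 20% oxygen (-1.82 ± 0.23, adjusted p = 0.00151; -2.92 ± 0.31 GC corrected). RPL35A, a large-subunit protein, had 0.334 and 0.342 at 1% oxygen, against 1.09 and 1.06 at 20% (-1.67 ± 0.29, adjusted p = 0.00417; -2.74 ± 0.36 GC corrected). For all 3, both low-oxygen cultures lay at least 2-fold below both cultures at 20%. Ribosomal protein genes have many near-identical pseudogene copies, and how shared reads were counted is not given, so their single values carry that uncertainty. The count of lower members was 31 of 79 after quantile normalisation and 47 after GC correction without culture 2 at 20% oxygen.

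TOP starts were read from RefSeq promoters (GRCh38.p14) as a C at the annotated start followed by at least 4 C or T, on the strand of the gene. Such a start was found in 43 of 63 ribosomal protein genes with a promoter entry (68.3%), against 1104 of all 27305 promoters (4.04%) and 627 of 11983 tested genes (5.23%). The following lines show the 10 bases before and the 20 bases from the annotated start for 5 genes with such a start that were lower at 1% oxygen, then for 3 genes without one that were higher; capitals mark the run that begins at the start.
RPLP1: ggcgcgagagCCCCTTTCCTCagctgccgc
RPL39: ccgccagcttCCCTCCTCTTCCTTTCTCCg
RPL35A: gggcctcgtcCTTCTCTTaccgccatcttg
SNHG5: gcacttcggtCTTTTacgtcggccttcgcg
TMEM258: ccgacgtgttCTTCCggtggcggagcggcg
HIF1A: tcagctcctcagtgcacagtgctgcctcgt
EP300: ttgtggcgatgagaaggaggaggacagcgc
KDM3A: ctcttgaaccaagtcagcgctggagtcggc
They lie at chr15:69452808-69452837 (+, RPLP1), chrX:119791611-119791640 (-, RPL39), chr3:197950180-197950209 (+, RPL35A), chr6:85678714-85678743 (-, SNHG5), chr11:61792580-61792609 (-, TMEM258), chr14:61695503-61695532 (+, HIF1A), chr22:41092582-41092611 (+, EP300) and chr2:86441361-86441390 (+, KDM3A). Within the ribosomal proteins the median GC-corrected change was -1.46 with such a start and -1.39 without it. Among tested genes other than ribosomal proteins it was -0.07 with such a start (584 genes, 99 higher and 147 lower) and 0.04 without. A run of these letters is a description of the annotated start and was not measured in these cells.

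Transcript length went with the change as well. The median GC-corrected change was -0.92 for 642 mRNAs under 1000 nucleotides, -0.42 for 2699 from 1000 to under 2000, 0.00 for 5623 from 2000 to under 4000, 0.32 for 4214 from 4000 to under 8000 and 0.53 for 1102 of 8000 or more. Ribosomal protein mRNAs lay below the other mRNAs of their class, with -1.46 (39 mRNAs) against -0.87 under 1000 nucleotides, -1.18 (21) against -0.42 from 1000 to under 2000, and -1.82 (14) against 0.00 from 2000 to under 4000. Lengths are those of the annotated transcript, and which transcript these cells use was not measured. With both GC and length corrected, 52 of 79 ribosomal protein mRNAs were lower and 0 higher (15.5% of all genes lower), with a median of -0.86.

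**Figure D3:**
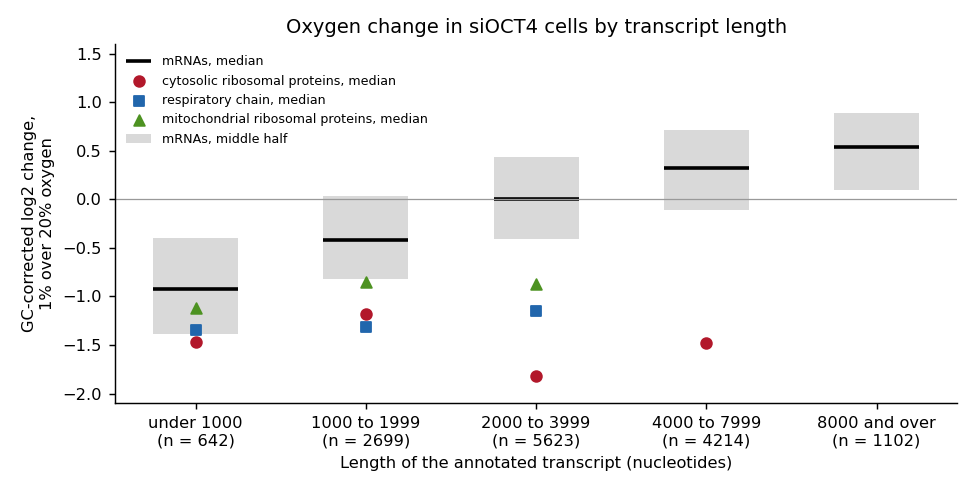
GC-corrected log2 change of the translation ratio (1% over 20% oxygen, siOCT4 cells) in 5 classes of annotated transcript length; grey bars span the interquartile range of all mRNAs, black lines are their medians, and symbols are the medians of 3 gene groups where a class holds at least 5 members. The black medians climb from -0.92 under 1000 nucleotides to 0.53 at 8000 or more, and all 3 groups lie below the black median of each class in which they are drawn.

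Nuclear-encoded mitochondrial mRNAs were also lower at 1% oxygen. Of 62 tested mRNAs for subunits of respiratory chain complexes and ATP synthase, 53 were lower and 0 higher after GC correction (18.0% of all genes lower), and 45 were lower and 2 higher as deposited (21.6% of all genes lower), with a GC-corrected median of -1.32. NDUFA4, a subunit of cytochrome c oxidase, had ratios of 0.579 and 0.590 at 1% oxygen, against 1.55 and 1.55 at 20% oxygen, 2.65-fold lower (log2 change -1.41 ± 0.18, adjusted p = 0.00156; -2.77 ± 0.16 GC corrected). COX7A2, another subunit of that oxidase, had 0.502 and 0.522 at 1% oxygen, against 1.40 and 1.52 at 20% oxygen (-1.51 ± 0.17, adjusted p = 0.00102; -2.75 GC corrected). NDUFB2, a complex I subunit, had 0.355 and 0.420 at 1% oxygen, against 1.33 and 1.26 at 20% (-1.74 ± 0.20, adjusted p = 0.00108; -2.73 GC corrected). All 3 were below 1 at low oxygen and above 1 at 20%.

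Mitochondrial ribosomal proteins followed the same direction, with 58 of 77 lower and 0 higher after GC correction and a median of -0.93, and with 42 lower and 9 higher as deposited (4 higher without culture 2 at 1% or at 20% oxygen). MRPL53, a protein of the large mitochondrial subunit, had 0.303 and 0.417 at 1% oxygen, against 1.20 and 1.79 at 20% oxygen (-2.04 ± 0.30, adjusted p = 0.00231; -2.04 GC corrected). Of 26 mRNAs for the mitochondrial import machinery, 17 were lower and 1 higher after GC correction (0 higher without culture 1 at 1% or culture 2 at 20% oxygen), with a median of -0.86. They included TIMM8B, an intermembrane space chaperone of import, with 0.339 and 0.383 at 1% oxygen against 1.18 and 1.29 at 20% (-1.77 ± 0.26, adjusted p = 0.00234; -2.67 GC corrected). TIMM10, the partner of TIMM9, changed by -1.87 ± 0.23 and TOMM7, a small subunit of the outer membrane pore, by -1.20 ± 0.23 (adjusted p = 0.00126 and 0.00639), or by -1.96 and -2.24 GC corrected. With GC and length corrected, 39 respiratory chain, 38 mitochondrial ribosomal and 14 import mRNAs were lower. The GC-corrected counts were 34, 31 and 11 without culture 2 at 20% oxygen. None of the 13 mitochondrially encoded mRNAs is measured, so the mitochondrial genome's own share of these complexes was not followed.

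**Figure D4:**
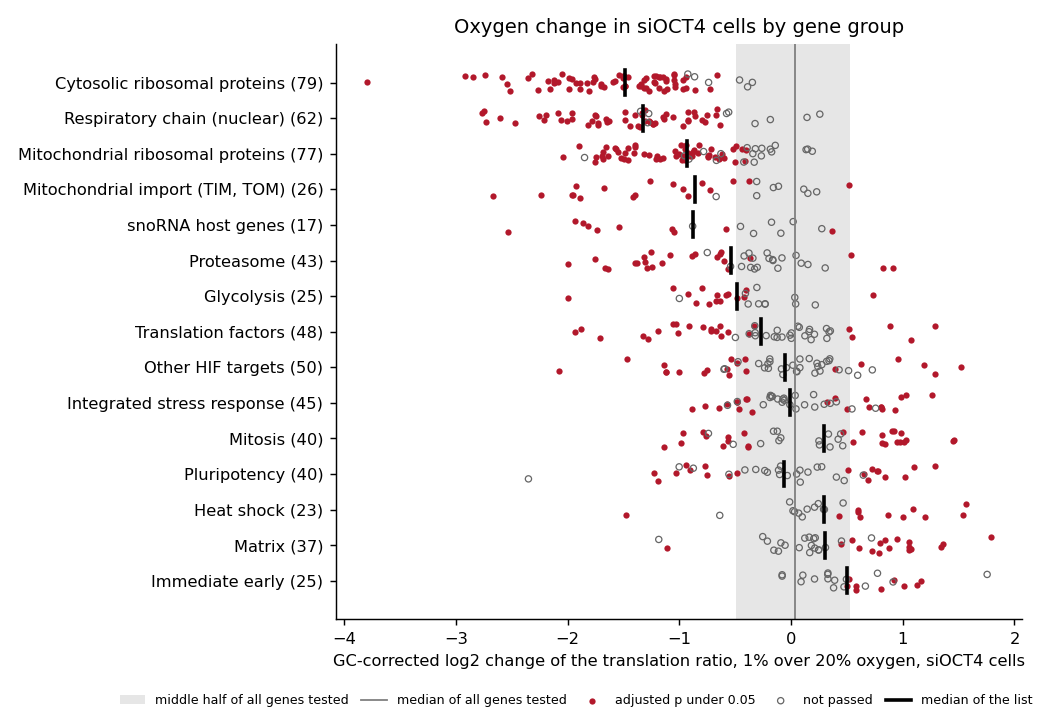
GC-corrected log2 change of the translation ratio (1% over 20% oxygen, siOCT4 cells) for the members of 15 gene groups, with the number tested in brackets; filled points passed the limma test, open points did not, black bars are group medians, and the grey band and line are the interquartile range and the median of all genes. The ribosomal and respiratory chain groups lie left of the band, with medians of -1.48 and -1.32, and the immediate early group has the highest median, 0.50.

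Host genes of small nucleolar RNAs, many of them spliced noncoding RNAs with TOP starts whose transcripts meet ribosomes and decay, were also lower. Of 17 tested, 9 were lower and 1 higher after GC correction (0 higher without any 1 of the 4 siOCT4 cultures), with a median of -0.88 (8 lower and 3 higher as deposited, or as few as 5 lower without culture 2 at 1%, or without either culture at 20% oxygen). SNHG5 had ratios of 0.206 and 0.159 at 1% oxygen, against 0.629 and 0.641 at 20% oxygen, 3.51-fold lower (log2 change -1.81 ± 0.25, adjusted p = 0.00199; -2.54 GC corrected). SNHG8 had 0.422 and 0.465 at 1% oxygen, against 1.19 and 1.19 at 20% (-1.43 ± 0.19, adjusted p = 0.00173; -1.86 GC corrected). The annotated start held the pyrimidine run in 4 of 15 such genes (26.7%). The median GC-corrected change of these 4 was -0.22, with 1 lower and 0 higher. For those without the run it was -0.88, with 6 lower and 1 higher.

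Translation factors were divided. Of 48, 19 were lower and 5 higher after GC correction (median -0.27), whereas 12 were lower and 20 higher as deposited (median 0.11, against 0.27 for all genes). The higher ones included large subunits and scaffolds of initiation. EIF3A, the largest subunit of the initiation factor eIF3, had ratios of 3.81 and 3.82 at 1% oxygen, against 0.729 and 0.663 at 20% oxygen, 5.50-fold higher (2.46 ± 0.15, adjusted p = 0.000683; 1.28 ± 0.18 GC corrected). EIF4G3, a scaffold of the cap-binding complex, had 4.05 and 3.70 at 1% oxygen, against 0.945 and 0.842 at 20% (2.12 ± 0.14; 1.07 GC corrected). EIF5B, the GTPase of subunit joining, had 5.21 and 5.85 at 1% oxygen, against 1.20 and 1.08 at 20% (2.28 ± 0.16; 0.88 GC corrected). On the lower side, EEF1B2, the exchange factor of elongation factor 1 and an mRNA of the ribosomal protein kind, had 0.422 and 0.439 at 1% oxygen, against 0.921 and 1.02 at 20% (-1.17 ± 0.14, adjusted p = 0.00131; -1.71 GC corrected). In each of these 4 genes the cultures of the 2 oxygen levels were more than 2-fold apart. Without culture 2 at 20% oxygen 8 factors were lower after GC correction, 10 without culture 1 at 20% and 11 without culture 1 at 1%, and 3 were higher without any 1 of the 4 siOCT4 cultures.

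Aminoacyl-tRNA synthetases, which charge tRNAs with amino acids, gave 8 higher and 7 lower of 37 after GC correction, close to the 19.0% and 18.0% of all genes. Of these, 5 were higher and 0 lower without culture 2 at 20% oxygen, and the lower count was 1 to 4 without culture 1 at 20%, either siOCT4 culture at 1% or either control culture at 1%. EPRS, the glutamyl-prolyl synthetase, had ratios of 4.04 and 4.36 at 1% oxygen, against 0.794 and 0.760 at 20% oxygen (2.43 ± 0.18, adjusted p = 0.000683; 1.26 GC corrected). TARS changed by 2.01 ± 0.13 and IARS by 2.0 ± 0.19, or by 0.87 each after GC correction. These 3 were among 7 synthetases higher on both scales, beside 5 that were lower on both. The proteasome gave 21 lower and 3 higher of 43 after GC correction, with a median of -0.54 (20 lower and 11 higher as deposited, and as few as 11 lower without culture 2 at 20% oxygen). PSMB5, the chymotrypsin-like catalytic subunit, had 0.391 and 0.424 at 1% oxygen, against 1.01 and 1.07 at 20% (-1.35 ± 0.19, adjusted p = 0.00189; -1.40 GC corrected). PSME4, the large activator PA200, had 3.98 and 4.21 at 1% oxygen, against 0.933 and 0.835 at 20% (2.21 ± 0.17; 0.91 GC corrected). The core particle subunit and the activator thus moved in opposite directions.

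Genes of glycolysis, which HIF1A induces in most cells at low oxygen, had lower translation ratios at 1% oxygen in more members than higher ones. Of 25, 14 were lower and 1 higher after GC correction (median -0.49), against 18.0% and 19.0% of all genes, and 14 were lower and 5 higher as deposited (median -0.98), against 21.6% and 37.4%. Without any 1 of the 4 siOCT4 cultures 3 were higher as deposited, and GC corrected 0 were higher without culture 2 at 20% oxygen. PGK1, phosphoglycerate kinase, had ratios of 0.465 and 0.461 at 1% oxygen, against 0.821 and 0.838 at 20% oxygen, 1.79-fold lower (log2 change -0.84 ± 0.15, adjusted p = 0.00428; -2.0 ± 0.20 GC corrected). PGAM1, phosphoglycerate mutase, had 0.479 and 0.534 at 1% oxygen, against 1.05 and 1.15 at 20% (-1.12 ± 0.16, adjusted p = 0.00188; -1.06 GC corrected). TPI1, triosephosphate isomerase, had 0.388 and 0.426 at 1% oxygen, against 1.06 and 1.03 at 20% (-1.37 ± 0.20, adjusted p = 0.00234; -0.92 GC corrected). HK2, the inducible hexokinase, went the other way, with 1.12 and 1.20 at 1% oxygen against 0.686 and 0.570 at 20% (0.89 ± 0.15, adjusted p = 0.00370; 0.73 GC corrected). The HK2 call was lost after GC and length correction (adjusted p = 0.0724) and, GC corrected, without culture 2 at 20% oxygen (adjusted p = 0.0544). The count of lower glycolysis genes was 2 after quantile normalisation, and without culture 2 at 20% oxygen it was 5 after GC correction; without culture 1 at 20% it was 9 and without culture 1 at 1% it was 7.

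The oxygen-sensing machinery itself had no common direction across scales. Of 13 HIF subunits, cofactors and oxygen sensors, 5 were higher and 3 lower after GC correction (median 0.16), 7 higher and 1 lower as deposited (median 0.54, with 37.4% of all genes higher), and 3 higher and 6 lower after GC and length correction (median -0.26). HIF1A had ratios of 5.31 and 5.42 at 1% oxygen, against 1.24 and 1.22 at 20% oxygen, 4.36-fold higher (2.12 ± 0.21, adjusted p = 0.000820; 0.73 ± 0.11 GC corrected, adjusted p = 0.00580). EP300, a histone acetyltransferase that HIF1A recruits, had 2.36 and 2.35 at 1% oxygen, against 0.763 and 0.733 at 20% (1.65 ± 0.15; 1.61 ± 0.13 GC corrected). Its relative CREBBP had 1.66 and 1.52 at 1% oxygen, against 0.793 and 0.761 at 20% (1.04 ± 0.19; 1.47 GC corrected). In these 3 genes both cultures at 1% oxygen lay above both at 20%. Without culture 2 at 1% or either culture at 20% oxygen 3 of the 13 were higher and 0 lower after GC correction, and without culture 1 at 1% oxygen 1 was lower.

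Of 50 HIF targets outside glycolysis, 14 were lower and 6 higher after GC correction (median -0.06), and 10 were lower and 20 higher as deposited (median 0.06). KDM3A, a histone demethylase induced by HIF1A, had ratios of 4.26 and 4.12 at 1% oxygen, against 0.983 and 0.853 at 20% oxygen (2.19 ± 0.20, adjusted p = 0.000745; 1.19 GC corrected). KDM4C, another demethylase of that kind, changed by 2.0 ± 0.18 (1.29 GC corrected). BNIP3, a mitophagy receptor, had 0.816 and 0.812 at 1% oxygen, against 1.18 and 1.07 at 20% (-0.47 ± 0.12, adjusted p = 0.0183; -1.47 ± 0.12 GC corrected). FAM162A, a mitochondrial protein induced by HIF1A, had 0.995 and 1.13 at 1% oxygen, against 1.88 and 1.6 at 20% (-0.71 ± 0.15, adjusted p = 0.00759; -2.08 GC corrected). KDM4C and FAM162A had a ratio that at least 2 other genes of the same culture shared, as ratios from few reads do. As deposited, FAM162A lost its call without culture 1 at 1% or at 20% oxygen (adjusted p up to 0.0547) and BNIP3 without any 1 of the 4 siOCT4 cultures (adjusted p up to 0.113), while both kept it in every GC-corrected fit. After GC correction 5 targets were lower and 3 higher without either culture at 20% oxygen, and 6 and 7 were lower without culture 1 or 2 at 1%; as deposited 4 or 5 were lower without any 1 of these cultures.

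The integrated stress response showed no common direction in siOCT4 cells. Of 45 genes, 12 were higher and 10 lower after GC correction (median -0.01), and 16 were higher and 10 lower as deposited (median 0.04). ALDH1L2, a mitochondrial folate enzyme induced by ATF4, had ratios of 5.39 and 4.69 at 1% oxygen, against 1.01 and 1.06 at 20% oxygen (2.29 ± 0.18; 1.03 GC corrected), with a value shared by other genes in at least 1 culture. SLC3A2, which pairs with the light chains of amino acid exchangers, had 0.395 and 0.371 at 1% oxygen, against 0.873 and 0.915 at 20% (-1.22 ± 0.19, adjusted p = 0.00262; -0.57 GC corrected). SLC3A2 lost the GC-corrected call without culture 2 at 20% oxygen (adjusted p = 0.0633), and the counts then came to 4 higher and 1 lower (5 to 7 higher and 2 or 3 lower without another siOCT4 culture, and 3 to 5 lower as deposited). Among 18 mTORC1 inhibitors and 4E-BPs, 5 were higher and 3 lower after GC correction, and 8 were higher and 6 lower as deposited. On both scales 4 were higher and 2 lower, with a 4E-BP among the lower ones. TSC1, a brake on mTORC1, had 3.20 and 3.09 at 1% oxygen, against 0.953 and 0.800 at 20% (1.85 ± 0.14, adjusted p = 0.000683; 1.28 GC corrected). Without culture 2 at 1% or culture 1 at 20% oxygen 1 of the 18 was higher, without the other siOCT4 cultures 2 were, and 1 was lower in each of these fits.

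Heat shock genes leaned to higher ratios. Of 23, 10 were higher and 1 lower after GC correction (median 0.30), against 19.0% and 18.0% of all genes, and 12 were higher and 3 lower as deposited (median 0.76), against 37.4% and 21.6%. HSPH1, a nucleotide exchange factor of HSP70, had ratios of 5.33 and 5.13 at 1% oxygen, against 0.907 and 0.848 at 20% oxygen, 5.96-fold higher (2.58 ± 0.17, adjusted p = 0.000683; 1.20 ± 0.09 GC corrected). HSPA1A, the inducible HSP70, had 1.18 and 1.05 at 1% oxygen, against 0.658 and 0.659 at 20% (0.76 ± 0.18, adjusted p = 0.0144; 1.54 GC corrected). Its near-identical copy HSPA1B changed by 0.86 ± 0.24 (1.56 GC corrected), and how the reads they share were divided is not given. As deposited both lost the call without any 1 of the 4 siOCT4 cultures (adjusted p up to 0.119), and GC corrected they kept it in every such fit. HSPE1, the mitochondrial co-chaperone, went down, with 0.841 and 0.831 at 1% oxygen against 1.82 and 1.97 at 20% (-1.18 ± 0.22, adjusted p = 0.00504; -1.48 GC corrected). Without either culture at 20% oxygen 6 heat shock genes were higher after GC correction.

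The 8 subunits of the cytosolic chaperonin CCT were mostly higher as deposited (6 higher, 1 lower, median 0.84) but not after GC correction (0 higher, 3 lower, median -0.21), where 1 was lower without any 1 of the 4 siOCT4 cultures. CCT7 was lower on both scales, with 0.528 and 0.562 at 1% oxygen against 0.959 and 0.931 at 20% (-0.79 ± 0.14, adjusted p = 0.00454; -0.86 GC corrected). Of 23 endoplasmic reticulum chaperone and unfolded protein response genes, 10 were lower and 6 higher after GC correction, or 2 and 1 without culture 2 at 20% oxygen. SEC61B, a subunit of the translocon, had 0.707 and 0.703 at 1% oxygen, against 1.42 and 1.41 at 20% (-1.01 ± 0.15, adjusted p = 0.00229; -1.53 GC corrected). CALR, calreticulin, had 0.541 and 0.591 at 1% oxygen, against 1.12 and 1.09 at 20% (-0.97 ± 0.17, adjusted p = 0.00415; -0.76 GC corrected). Both secretory pathway mRNAs were about 2-fold lower at 1% oxygen.

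Genes of mitosis were higher at 1% oxygen as deposited, with 28 of 40 higher and 4 lower (median 1.15, against 0.27 for all genes). Their transcripts are AT-rich, with a median of 41.6% GC against 49.7% for all genes, and after GC correction 15 were higher and 11 lower (median 0.29). BUB1B, a kinase of the spindle checkpoint, had ratios of 5.15 and 6.15 at 1% oxygen, against 0.958 and 0.867 at 20% oxygen, 6.17-fold higher (2.63 ± 0.15, adjusted p = 0.000683; 1.46 ± 0.12 GC corrected). MKI67, the proliferation marker that coats mitotic chromosomes, had 2.27 and 2.04 at 1% oxygen, against 0.547 and 0.509 at 20% (2.03 ± 0.25, adjusted p = 0.00127; 1.45 GC corrected). TOP2A, topoisomerase II, had 4.20 and 4.54 at 1% oxygen, against 0.822 and 0.809 at 20% (2.42 ± 0.20; 1.03 GC corrected). All 3 had ratios below 1 at 20% oxygen and above 2 at 1%. They were among 15 mitosis genes higher on both scales, beside 3 that were lower on both. The GC-corrected MKI67 call was lost without culture 2 at 20% oxygen (adjusted p = 0.0509), and then 8 mitosis genes were higher and 3 lower. The lower count was 4 to 6 without the other siOCT4 cultures, and 2 as deposited without any 1 of the 4.

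In DNA replication 27 of 49 genes were higher and 10 lower as deposited (median 0.68), and 9 were higher and 12 lower after GC correction (median -0.15). The counts were 16 higher and 2 lower as deposited, and 4 and 3 after GC correction, without culture 2 at 20% oxygen, and without culture 1 at 20% they were 17 and 3, and 5 and 5; without a culture at 1% 3 were lower as deposited and 5 or 7 after GC correction. MCM10, a loader of replication proteins, had 4.0 and 3.94 at 1% oxygen, against 0.903 and 0.982 at 20% (2.08 ± 0.13; 1.36 GC corrected). POLA1, the catalytic subunit of the primase polymerase, had 3.29 and 4.09 at 1% oxygen, against 0.753 and 0.710 at 20% (2.33 ± 0.19; 1.13 GC corrected). RFC1, the large clamp loader subunit, had 6.30 and 5.25 at 1% oxygen, against 1.15 and 1.13 at 20% (2.34 ± 0.16; 1.04 GC corrected). On the lower side, RPA3, the small subunit of the single-strand binding protein RPA, had 0.776 and 0.772 at 1% oxygen, against 1.27 and 1.37 at 20% (-0.77 ± 0.18, adjusted p = 0.0142; -1.65 GC corrected), with a value shared by other genes in at least 1 culture. POLD2, a subunit of DNA polymerase delta, had 0.382 and 0.409 at 1% oxygen, against 0.999 and 1.23 at 20% (-1.49 ± 0.22, adjusted p = 0.00251; -0.75 GC corrected). GINS2, a subunit of the replicative helicase complex, changed by -0.52 ± 0.18 (-0.98 GC corrected). RPA3 and GINS2 lost the call as deposited without any 1 of the 4 siOCT4 cultures (adjusted p up to 0.0765 and 0.166), and POLD2 the GC-corrected one without culture 1 at 1% or culture 2 at 20% oxygen (adjusted p up to 0.0572). Of 25 histone genes 4 were lower and 0 higher after GC correction, among them H2AFZ, the variant H2A.Z, with 0.828 and 0.822 at 1% oxygen against 1.39 and 1.51 at 20% (-0.81 ± 0.12, adjusted p = 0.00242; -1.61 GC corrected). Of the 25, 16 had a ratio shared by other genes of a siOCT4 culture, as ratios from few reads are. Of 32 splicing factors 21 were higher and 4 lower as deposited (median 0.82), and 9 were higher and 9 lower after GC correction (median -0.07), or 2 and 4 without culture 2 at 20% oxygen. Without the other siOCT4 cultures 2 to 5 were higher after GC correction, and 1 was lower as deposited without any 1 of the 4. HNRNPH1, an RNA-binding splicing regulator, had 3.86 and 3.64 at 1% oxygen, against 1.26 and 1.13 at 20% (1.65 ± 0.13; 1.55 GC corrected). It was among 9 splicing factors higher on both scales, beside 2 that were lower on both.

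Of 28 genes of cholesterol synthesis, 10 were lower and 3 higher after GC correction (median -0.31), and 14 were lower and 9 higher as deposited (median -0.56). EBP, a sterol isomerase, had ratios of 0.379 and 0.439 at 1% oxygen, against 0.973 and 1.11 at 20% oxygen (-1.35 ± 0.16, adjusted p = 0.00115; -1.19 GC corrected). HMGCS1, which forms the precursor of mevalonate, had 4.32 and 4.42 at 1% oxygen, against 0.899 and 0.842 at 20% (2.33 ± 0.18; 0.96 GC corrected). ACACA, acetyl-CoA carboxylase of fatty acid synthesis, had 1.79 and 1.94 at 1% oxygen, against 0.603 and 0.541 at 20% (1.71 ± 0.14; 1.14 GC corrected). Enzymes of the same lipid pathways thus went both ways. Of 29 p53 targets 8 were higher and 4 lower after GC correction (19.0% and 18.0% of all genes), with MDM2, the ubiquitin ligase of p53, at 6.37 and 6.10 at 1% oxygen against 1.21 and 1.07 at 20% (2.46 ± 0.18; 1.18 GC corrected). Of 24 NRF2 targets, genes of the antioxidant response, 2 were higher and 11 lower after GC correction, and of 36 autophagy genes 4 were higher and 11 lower. Without culture 2 at 20% oxygen the lower counts came to 3 for cholesterol synthesis, 2 for NRF2 targets and 3 for autophagy, and 2 p53 targets were higher (4 without any other siOCT4 culture). The lower counts were 5 or 6, 4 or 5 and 3 to 5 without another siOCT4 culture that moved them, and 7 for autophagy without either control culture at 1%. Without any 1 of the 4 siOCT4 cultures 2 p53 targets were lower, 0 or 1 NRF2 targets and 1 or 2 autophagy genes were higher, and 6 to 9 cholesterol genes were lower as deposited; 4 NRF2 targets were higher without either control culture at 20%.

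The pluripotency genes, POU5F1 among them, went both ways. Of 40, 10 were higher and 9 lower after GC correction (median -0.06), and 18 were higher and 8 lower as deposited (median 0.41). SALL4, a zinc finger factor of the pluripotency network, had ratios of 2.45 and 2.29 at 1% oxygen, against 1.03 and 0.959 at 20% oxygen, 2.38-fold higher (1.25 ± 0.14, adjusted p = 0.00100; 1.10 ± 0.14 GC corrected). SOX2, the DNA-binding partner of OCT4, had 2.63 and 2.74 at 1% oxygen, against 1.14 and 1.12 at 20% (1.25 ± 0.21, adjusted p = 0.00373; 1.02 GC corrected). PODXL, the sialomucin that carries the TRA-1 epitopes of stem cells, had 1.10 and 1.01 at 1% oxygen, against 0.741 and 0.732 at 20% (0.52 ± 0.13, adjusted p = 0.0182; 1.29 GC corrected). In these 3 genes both cultures at 1% oxygen were higher than both at 20%. LIN28A, an inhibitor of let-7 maturation, had 0.681 and 0.703 at 1% oxygen, against 0.940 and 0.995 at 20% (-0.48 ± 0.14, adjusted p = 0.0274; -1.03 GC corrected). SFRP2, a secreted modulator of Wnt, had 0.661 and 0.713 at 1% oxygen, against 1.39 and 1.5 at 20% (-1.07 ± 0.13, adjusted p = 0.00118; -1.20 GC corrected). SOX2 lost the GC-corrected call without culture 2 at 1% or either culture at 20% oxygen (adjusted p up to 0.0624), and PODXL and LIN28A lost the call as deposited without any 1 of the 4 siOCT4 cultures (adjusted p up to 0.120 and 0.138). The GC-corrected counts then fell to as few as 4 higher without culture 1 at 20% oxygen, and 5 lower without culture 2 at 1% or at 20%, and as deposited 5 were lower without culture 2 at 20%.

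Markers of other cell types gave shares that differed by list, beside 19.0% higher and 18.0% lower for all genes. After GC correction, 2 of 14 trophectoderm markers were higher and 2 lower, 1 of 18 mesendoderm markers was higher and 0 lower, 2 of 18 neuroectoderm markers were higher and 4 lower, and 1 of 10 fibroblast markers was higher and 4 lower. As deposited, 2 trophectoderm markers were higher and 6 lower, and 2 fibroblast markers were higher and 6 lower, against 37.4% and 21.6% of all genes. Without culture 2 at 20% oxygen 0 trophectoderm and 0 neuroectoderm markers were higher, and 2 neuroectoderm and 2 fibroblast markers were lower. On both scales 1 of the 14 trophectoderm markers was higher and 2 were lower. Their GC-corrected changes reached from -1.80, that of HLA-G, to 1.35. HLA-G, the trophoblast class I molecule, had ratios of 0.467 and 0.484 at 1% oxygen, against 2.28 and 2.73 at 20% oxygen, 5.25-fold lower (-2.39 ± 0.20, adjusted p = 0.000683; -1.80 GC corrected). HLA genes are alike in sequence, at least 1 of these ratios was shared by other genes, and the value is uncertain for both reasons. In 13 of the 18 neuroectoderm markers a siOCT4 ratio was shared by other genes of the same culture, as ratios from few reads are. The same held for 6 trophectoderm, 6 mesendoderm and 2 fibroblast markers, and for 6054 of all 15864 genes. The ratios do not give the levels of any marker, and a change in cell makeup was not tested.

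Matrix genes leaned to higher ratios after GC correction, with 16 of 37 higher and 1 lower (median 0.31), against 19.0% and 18.0% of all genes. After GC and length correction 7 were higher and 6 lower, beside 13.7% and 15.5% of all genes. As deposited 16 were higher and 8 lower (37.4% and 21.6% of all genes), with a median of 0.20, against 0.27 for all genes. The median was -0.06 after median centring and -0.11 after GC and length correction. After quantile normalisation 19 were higher and 1 lower (median 1.06, against -0.01 for all genes). Matrix transcripts are long, with a median of 6727 nucleotides, against 3101 for all genes. What moved the counts between scales was not tested. FN1, fibronectin, had ratios of 0.932 and 0.948 at 1% oxygen, against 0.295 and 0.276 at 20% oxygen, 3.29-fold higher (1.72 ± 0.21, adjusted p = 0.00132; 1.35 GC corrected). COL12A1, a fibril-associated collagen, had 3.20 and 3.70 at 1% oxygen, against 0.466 and 0.670 at 20% (2.62 ± 0.20; 1.79 GC corrected). FRAS1, a basement membrane protein, had 1.67 and 1.6 at 1% oxygen, against 0.508 and 0.470 at 20% (1.74 ± 0.16; 1.36 GC corrected). Each of the 3 was below 1 at 20% oxygen and at least 3-fold higher at 1%. The GC-corrected count was 8 higher without culture 2 at 20% oxygen, and as deposited 1 or 2 were lower without any 1 of the 4 siOCT4 cultures, 5 without either control culture at 1% and 13 without either at 20%.

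Immediate early genes gave 9 higher and 0 lower of 25 after GC correction (median 0.50), and 5 higher and 1 lower as deposited. JUN, a subunit of AP-1, had ratios of 1.45 and 1.38 at 1% oxygen, against 0.831 and 0.981 at 20% oxygen (0.64 ± 0.20, adjusted p = 0.0326; 1.17 GC corrected). KLF6, a growth-factor induced zinc finger gene, had 4.17 and 3.72 at 1% oxygen, against 1.03 and 0.940 at 20% (2.0 ± 0.17; 1.12 GC corrected). SPRY4, a feedback inhibitor of MAP kinase signalling, had 2.39 and 2.19 at 1% oxygen, against 1.08 and 1.13 at 20% (1.05 ± 0.13; 1.56 GC corrected). SPRY4 belongs to the group of MAP kinase phosphatases and Sprouty-type inhibitors, not to these 25 genes. JUN lost the call as deposited without any 1 of the 4 siOCT4 cultures (adjusted p up to 0.158), and 4 immediate early genes were higher after GC correction without culture 2 at 20% oxygen, or 5 without culture 1 at 20%. As deposited 2 or 3 were higher without any 1 of the 4 siOCT4 cultures, and 3 were lower without either control culture at 20%.

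Whether oxygen acted differently in siOCT4 than in control siRNA cells was tested by the difference of the 2 oxygen effects, which share no culture. GC corrected, 6708 genes differed (43.6%), 3438 with a higher effect in siOCT4 cells (22.3%) and 3270 with a lower one (21.2%). As deposited 10893 differed (68.7%), with the opposite GC slopes of the 2 cell groups among the values compared. In control cells alone 7102 genes passed after GC correction (46.1%), 3537 of them higher at 1% oxygen (23.0% of all genes) and 3565 lower (23.2%). These shares are the background for the GC-corrected control counts below. As deposited 9545 passed in control cells (60.2%), of which 6290 were lower at 1% oxygen (39.6%).

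Glycolysis, the integrated stress response and the ribosomal proteins moved apart between the 2 cell groups. In glycolysis 14 genes were lower and 1 higher in siOCT4 cells after GC correction, against 3 lower and 20 higher in control cells, and 19 of 25 passed the test of the difference with a lower effect in siOCT4 cells (1 with a higher one). PGK1 changed by -2.0 in siOCT4 cells, against 3.75 in control cells, a difference of -5.74 ± 0.29 (adjusted p = 0.000932). In the integrated stress response the median was -0.01 in siOCT4 cells, against 1.40 in control cells, where 35 of 45 genes were higher, and 31 differed with a lower effect in siOCT4 cells, 6 with a higher one. GDF15, a secreted stress hormone, stood at 0.510 and 0.455 in siOCT4 cells at 1% oxygen, against 0.884 and 1.04 at 20% oxygen. Its GC-corrected change was 0.036 in siOCT4 cells, against 6.53 in control cells, a difference of -6.50 ± 0.20 (adjusted p = 0.000932). As deposited, GDF15 changed by -1.0 ± 0.31 in siOCT4 cells (adjusted p = 0.0356). That call was lost without any 1 of the 4 siOCT4 cultures or of the 2 control cultures at 1% oxygen (adjusted p up to 0.207). Of the ribosomal proteins 63 had a lower effect in siOCT4 cells and 0 a higher one, with medians of -1.48 in siOCT4 cells and 0.14 in control cells.

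Pluripotency genes differed in the other direction. In siOCT4 cells 10 of 40 were higher and 9 lower after GC correction, against 3 higher and 27 lower in control cells (median -0.06 against -1.24), and 22 had a higher effect in siOCT4 cells, 4 a lower one. POU5F1 changed by -0.90 in siOCT4 cells, against -0.39 in control cells, and this difference did not pass (-0.51 ± 0.20, adjusted p = 0.0891), although it did as deposited (-1.68 ± 0.32, adjusted p = 0.00420). APELA, a peptide hormone of embryonic stem cells, stood at 3.36 and 4.91 in siOCT4 cells at 1% oxygen, against 1.77 and 1.67 at 20% oxygen (1.24 ± 0.25, adjusted p = 0.00724). GC corrected its change was -0.15 in siOCT4 cells, against -5.55 in control cells, a difference of 5.40 ± 0.28 (adjusted p = 0.000932). B3GNT7, a glycosyltransferase, changed GC corrected by 1.21 in siOCT4 cells, against -3.38 in control cells, a difference of 4.58 ± 0.22 (adjusted p = 0.000932). As deposited its difference was 2.89. Its change in siOCT4 cells as deposited ranged only between 0.18 and 0.38 with single cultures left out. SIX3, a forebrain transcription factor, had no oxygen change past the test in siOCT4 cells (1.47 and 0.837 at 1% oxygen, against 1.21 and 1.23 at 20%), and its difference of 5.04 ± 0.83 came from -4.98 in control cells (adjusted p = 0.00589).

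**Figure D5:**
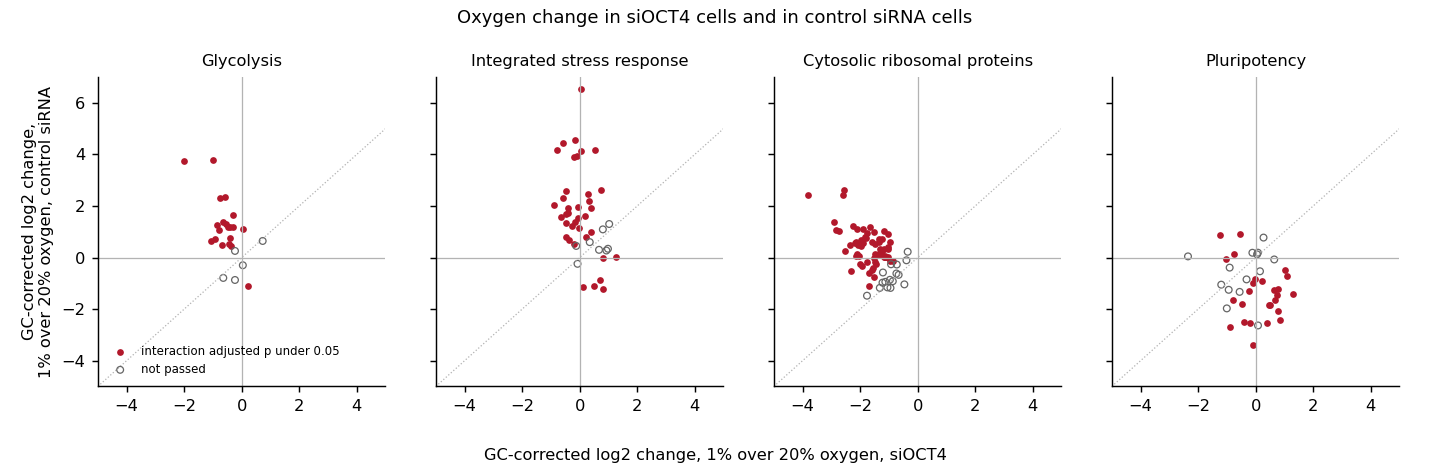
GC-corrected log2 change of the translation ratio (1% over 20% oxygen) in siOCT4 cells (x axis) and in control siRNA cells (y axis), 1 point per gene, for 4 gene groups; filled points passed the limma test of the difference between the 2 oxygen effects, and the dotted line marks equal effects. Most glycolysis and stress response genes lie above the line, with PGK1 at -2.0 and 3.75 and GDF15 at 0.036 and 6.53, and most pluripotency genes lie below it.

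Genes without a complete set of ratios were not tested. In siOCT4 cells 344 genes had a ratio in both cultures at 1% oxygen and in neither at 20%, and 336 had one in both cultures at 20% and in neither at 1%. By kind of gene, 2819 of 14280 protein-coding genes were higher and 2642 lower after GC correction. Of 277 long intergenic RNAs 17 were higher and 45 lower, of 363 antisense RNAs 18 were higher and 29 lower, and of 81 processed pseudogenes 12 were higher and 5 lower. Most of these noncoding genes (212, 306 and 59) had at least 1 ratio shared with other genes of the same siOCT4 culture, as ratios from few reads do.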

How the data were processed

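The deposited table gives a translation ratio per gene and culture, which the authors computed from RNA-seq and RNC-seq values. The submitters' processing notes name edgeR and hg19. Mapper, annotation, filters and depth: not given in the sources used here. The 8 columns were assigned to groups by their names, with "sO" read as siOCT4. Genes with ratios in every one of the 8 columns were tested on log2 ratios, without a pseudocount, by limma 3.58.1 (R 4.3.3; trend and robust settings, 4 group means, Benjamini-Hochberg adjustment, two-sided). GC correction took the residual of each column from a natural spline with 6 degrees of freedom on the GC content of the gene's longest APPRIS principal transcript in GENCODE 29, matched by current or older symbol for 15396 genes (97.0%). GC and length correction added a second natural spline with 6 degrees of freedom, on the logarithm of transcript length. A ratio shared by 3 or more genes of a column was taken as coming from few reads. The code was tested on simulated data. The genes named are POU5F1 and, in each direction, the 10 genes of largest GC-corrected change that passed both fits, had separated cultures and had no shared ratio. Added to these are up to 3 members per direction of each gene list, by GC-corrected change among those passing both fits. A further 5 genes per direction were named by the difference between cell groups. Of the 161 genes so named, 88 are described. The comparison, its gene lists and this rule were chosen with earlier results of these data known. Alternatives included other scalings, pseudocounts, a replicate block, other sets of genes and leaving out each culture.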

Additional observations from a re-analysis of the deposited data

Results flagged for a closer look

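The oxygen effect differed between siOCT4 and control siRNA cells in 65 of the genes described above, by limma's test of the difference between both effects (siOCT4 minus control, adjusted p under 0.05 both as deposited and GC corrected). Of all genes, 68.7% passed this test as deposited and 43.6% GC corrected, and the genes described were chosen for large changes in siOCT4 cells or for this same difference, so their number is a description. The values are GC-corrected log2 differences.

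In 38 genes the change was higher in siOCT4 cells. They were led by APELA (5.40), SIX3 (5.04), B3GNT7 (4.58), SMARCA5-AS1 (4.41), STON2 (3.96), MCC (3.78), AFF3 (3.64) and DISC1 (3.61). Next in size came HNRNPH1 (3.47), NEFH (3.11), CRACR2A (3.03), BUB1B (2.88), PODXL (2.70), PRDM15 (2.67), RFC1 (2.23) and PSME4 (2.10). Smaller differences were those of KDM3A (2.05), MCM10 (1.91), EP300 (1.89), SALL4 (1.80), SPRY4 (1.74), HIF1A (1.72), EIF4G3 (1.69) and POLA1 (1.64). Further genes with such a difference were SOX2 (1.49), EIF5B (1.48), TSC1 (1.43), MKI67 (1.37), EPRS (1.25), EIF3A (1.10), TARS (1.09) and MDM2 (1.03). Further genes with such a difference were FRAS1 (1.02), KDM4C (1.00), HMGCS1 (0.91), TOP2A (0.89), IARS (0.71) and ACACA (0.59).

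In 27 genes the change was lower in siOCT4 cells. They began with GDF15 (-6.50), PGK1 (-5.74), FAM162A (-4.39), RPL39 (-4.31), NDUFB2 (-4.16), FMC1 (-3.95), RPLP1 (-3.93) and BNIP3 (-3.92). Next in size came RPL35A (-3.77), TXNDC17 (-3.75), JUN (-3.37), PTRHD1 (-3.29), SNHG5 (-3.12), SLC3A2 (-2.87), HLA-G (-2.65) and SNHG8 (-2.64). Smaller differences were those of TMEM258 (-2.62), HSPA1B (-1.86), EEF1B2 (-1.84), HSPA1A (-1.69), PGAM1 (-1.68), EBP (-1.67), TPI1 (-1.66) and CCT7 (-1.63). Further genes with such a difference were PSMB5 (-1.55), MRPL53 (-1.36) and TIMM10 (-1.02).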

How the results depend on the processing

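In siOCT4 cells 9362 genes passed between 1% and 20% oxygen as deposited. Each other setting was counted anew over the genes it tested, not within these 9362. The count was 5686 after GC correction, 4499 after GC and length correction and 5018 after quantile normalisation. GC corrected, it ranged between 2108 and 6177 when single cultures were left out, with 3016 and 3526 without siOCT4 culture 1 or 2 at 1% oxygen and 2852 and 2108 without culture 1 or 2 at 20%. The difference between siOCT4 and control cells passed for 10893 genes as deposited, 6708 after GC correction, 6513 after GC and length correction and 7034 after quantile normalisation. Among the 8087 genes without shared ratios, fewer than the 15864 tested otherwise, it passed for 6874 as deposited and 5069 GC corrected, and the control comparison for 6230 (9545 of all genes) as deposited. With quantile normalisation 31 ribosomal protein and 2 glycolysis mRNAs were lower and 17 mitosis mRNAs higher. With GC correction 15 mitosis mRNAs were higher. With GC and length correction 14 mitosis mRNAs were higher and 38 mitochondrial ribosomal protein mRNAs lower. With single cultures left out, the GC-corrected counts ranged between 47 and 77 for ribosomal proteins, 34 and 59 for the respiratory chain, 31 and 58 for mitochondrial ribosomal proteins, 5 and 17 for glycolysis (7 without siOCT4 culture 1 at 1% and 9 without culture 1 at 20% oxygen) and 8 and 15 for mitosis. The cause of these shifts was not tested. APELA, higher as deposited, changed by -0.15 in the GC-corrected fits and by -0.25 after quantile normalisation, and ranged between -0.41 and 0.12 with single cultures left out (-0.14 without siOCT4 culture 1 at 20%). GDF15, lower as deposited, changed by 0.036 in the GC-corrected fits, 0.055 by the longest transcript and 0.47 after GC and length correction, and ranged between -0.07 and 0.14 with single cultures left out (0.093 without siOCT4 culture 2 at 1%). Of the 88 genes described, 66 passed in all 16 fits that left out a culture. Same-numbered cultures did not deviate together (correlations across genes between -0.23 and 0.02), so the replicate numbers were not taken to pair them. With a replicate block 8613 genes passed, and 4785 after GC correction, and 4 of the genes described lost their call as deposited. Depth is not given, so the counting error of a ratio is unknown, and 2 cultures per group limit the precision of every value.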

Other observations

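Several smaller gene groups were followed without a common direction in siOCT4 cells. Of 16 MAP kinase phosphatases and Sprouty-type inhibitors, 5 were higher at 1% oxygen and 1 lower after GC correction (median 0.14). Without culture 1 or 2 at 20% oxygen 2 were higher. Of 20 targets of TGF-beta and BMP signalling, 3 were higher and 6 lower (median -0.12), and 2 were lower without culture 2 at 1% or at 20% oxygen. In control siRNA cells 2 of these targets were higher and 11 lower (median -1.11), and 10 of the 20 had a higher oxygen effect in siOCT4 cells by the limma test of the difference, 2 a lower one. Of 10 genes of naive pluripotency 2 were higher and 0 lower, and of 10 nuclear long noncoding RNAs 2 were higher and 1 lower after GC correction, beside 19.0% and 18.0% of all genes. The naive pluripotency count was 0 without culture 2 at 1% or either culture at 20% oxygen, and among the nuclear RNAs 0 were higher without culture 2 at 20% and 0 lower without any 1 of the 4 siOCT4 cultures.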
